A study of Mus musculus with 3 samples.

Results

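The ISG15 conjugation system and the giant ubiquitin ligase gene Rnf213 were examined as 7 genes, Isg15, Uba7, Ube2l6, Herc6, Usp18, Usp25 and Rnf213, out of 55536 annotated genes. They were taken by gene symbol, and the annotation gives them 37 transcripts. The RNA came from the chromatin fraction of bone marrow-derived macrophages, cells grown in culture from marrow progenitors of C57BL/6J mice. All cells received 100 ng/ml Lipid A, the Toll-like receptor 4 ligand of bacterial lipopolysaccharide, for 12 h, then no Lipid A for 12 h after washing, and then the same dose for a further 120 min. Ribosomal RNA was depleted. The 3 libraries were biological replicates 1, 2 and 3 of this 1 condition, made from 1 µg, 250 ng and 500 ng of RNA. The labels carry 1 donor identifier for all of them, with age not collected, and do not say whether each replicate came from its own animal, so every SD below may be technical. In bulk RNA of this kind, fewer expressing cells and less RNA per cell cannot be told apart. With no untreated or singly stimulated cells in the comparison, the values describe levels under this treatment and measure no induction.

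ISG15 is a ubiquitin-like protein with tandem ubiquitin-like domains that is attached to other proteins by an enzyme chain parallel to that of ubiquitin. UBA7 is its activating (E1) enzyme, UBE2L6 its conjugating (E2) enzyme and HERC6 the main ISG15 ligase (E3) of mice, while USP18 removes ISG15 and also binds the interferon receptor chain IFNAR2 to restrain its signalling. Type I interferon, which macrophages make after Toll-like receptor 4 is engaged, is the known inducer of most of these genes. USP25 is a deubiquitinase known from innate immune signalling, and RNF213 is a very large ATPase and ubiquitin ligase that binds proteins carrying ISG15 and can attach ubiquitin to the lipid A of bacteria in the cytosol.

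Promoter sequences of 250 bases before to 50 bases after the RefSeq start (GRCm38.p6) matched 6 of the 7 genes by symbol, all but Usp18. The Isg15 stretch is shown because it carried the only match to the core of the interferon-stimulated response element (GAAANNGAAA, either strand) among these 6 promoters, and the Uba7 stretch because it carried the only other match to the looser interferon regulatory factor element (AANNGAAA, either strand). Capitals mark the matches of the response-element core in Isg15 and of the looser element in Uba7, both 5′ to 3′ on the gene's strand.
Isg15, chr4:156200830-156200941, minus strand, bases -123 to -12: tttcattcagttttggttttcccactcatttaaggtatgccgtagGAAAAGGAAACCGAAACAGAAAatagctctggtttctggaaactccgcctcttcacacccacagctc
Uba7, chr9:107975529-107975558, plus strand, bases -38 to -9: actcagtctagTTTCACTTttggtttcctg
Isg15 held 3 overlapping matches of the core, starting 78, 72 and 66 bases before its start. Of 32851 RefSeq promoters of the same length, 3.44% held that core and 23.9% held the looser element, which every core match also contains. The looser element matched 4 times in Isg15, of which the match starting 128 bases before the start is not wholly in the stretch shown, and 1 time in Uba7, 27 bases before its start. The gamma-activated sequence TTCNNNGAA was in 8.30% of promoters and in none of the 6. A match describes letters in this window only, and the RefSeq start lies 3001 bases from the annotated gene start used for counting in Rnf213, 363 in Usp25, 62 in Uba7 and 8 in Herc6.

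Rnf213 was the most heavily counted of the 7 genes by far. Its transcripts took 123544, 218248 and 185680 expected counts in replicates 1, 2 and 3, or 1.16% ± 0.09 (SD, n = 3) of all counts, and no protein-coding gene had more in any library. Per length, in TPM (transcript abundance scaled by length and library), its level was 715, 1015 and 797, a mean of 842 ± 155 (SD, n = 3), which placed it 21st, 13th and 13th among protein-coding genes. The first rank by counts and the lower rank per length go with a transcript of 16716 bases. Rnf213 (ENSMUSG00000070327.14) spans 94.3 kb at chr11:119393100-119487418 on the plus strand, in mm10 coordinates as are all gene positions below.

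The ligase and the E1 enzyme came next. Herc6 (ENSMUSG00000029798.11, chr6:57581000-57664632) stood at 347, 371 and 345 TPM, with a mean of 354 ± 14.3 (SD, n = 3). Uba7 (ENSMUSG00000032596.14, chr9:107975505-107984060) stood at 278, 361 and 227 TPM, with a mean of 289 ± 67.9 (SD, n = 3). The ranges of these genes overlapped, since Uba7 in replicate 2 lay above Herc6 in replicates 1 and 3, although Herc6 was the higher gene within each library.

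The ISG15 protease and the modifier itself lay in the middle. Usp18 (ENSMUSG00000030107.10, chr6:121245906-121270917) was listed at 157, 83.5 and 93.0 TPM, with replicate 1 well above the other libraries. Isg15 (ENSMUSG00000035692.6, chr4:156199424-156200818, minus strand) was nearly level at 98.6, 91.0 and 93.1 TPM, a mean of 94.2 ± 3.93 (SD, n = 3). Usp18 exceeded Isg15 in replicate 1 only by these values. It was the higher gene in every library when the reads were quantified without alignment, so their order was not fixed by these data. Isg15 is the shortest of the 7 genes at 1.40 kb, with 2 exons and 1 annotated transcript.

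Usp25 (ENSMUSG00000022867.10, chr16:77013706-77116780), the longest gene at 103 kb, reached 53.9, 59.7 and 43.1 TPM. Ube2l6 (ENSMUSG00000027078.14, chr2:84798828-84810335), the E2 enzyme, was lowest at 12.6, 16.2 and 13.6 TPM, from 149, 261 and 258 expected counts. It was close to the median expressed protein-coding gene, which stood at 9.95, 13.9 and 12.1 TPM in the 3 libraries.

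**Figure D1:**
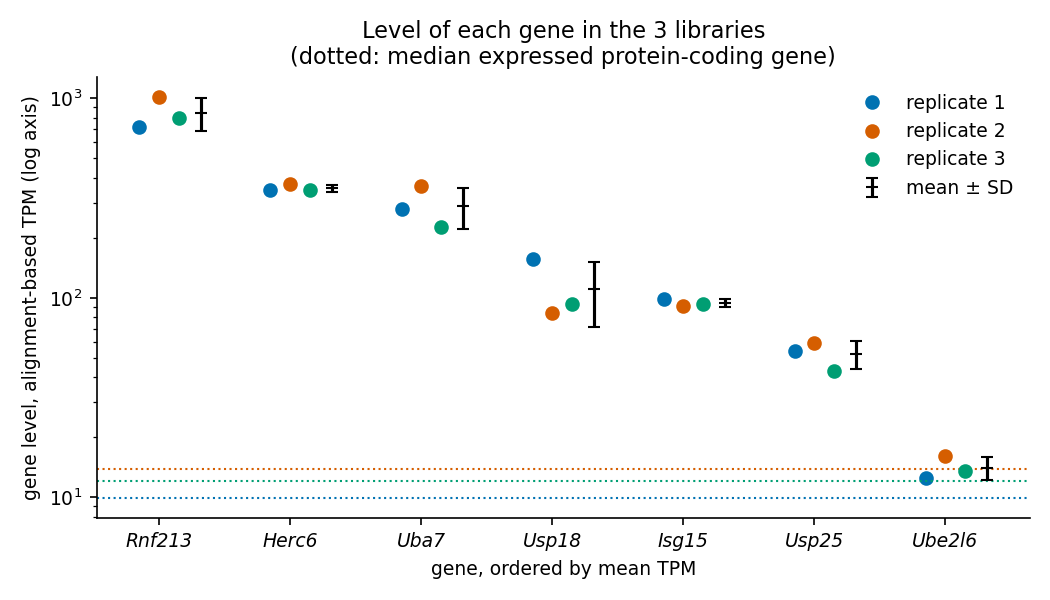
Alignment-based TPM of each gene (log axis) in replicates 1, 2 and 3, ordered by mean TPM, with the mean ± SD beside the points and dotted lines at each library's median expressed protein-coding gene. Rnf213 sits highest at 715 to 1015 TPM, the ranges of Herc6 and Uba7 and of Usp18 and Isg15 overlap, and Ube2l6 lies near the lines.

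With expression defined as at least 1 TPM in all 3 libraries, all 7 genes were expressed, against 42% of 22028 protein-coding genes. All 7 also lay above the median of the 9245 expressed protein-coding genes in every library, against 44% of those genes. Fold values over that median were 69.6 for Rnf213, 29.6 for Herc6, 23.7 for Uba7, 8.94 for Usp18, 7.88 for Isg15, 4.33 for Usp25 and 1.18 for Ube2l6, on the log2(TPM + 0.1) scale averaged over libraries. Ube2l6 fell below the median gene, to 0.658-fold, when only genes of at least 5 TPM counted as expressed, a limit that lowered every one of these folds. On protein-coding transcripts alone Herc6 was 8.66-fold above the median gene, and Uba7 lay below it with a log2 difference of -1.70, a size that depends on a value of 0 in replicate 1 and on the pseudocount.

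Differences between neighbours in this order were tested within libraries by an exact two-sided sign-flip test, for which the smallest p with 3 libraries is 0.25. Rnf213 exceeded Herc6 2.35-fold, Uba7 exceeded Usp18 2.65-fold, Isg15 exceeded Usp25 1.82-fold and Usp25 exceeded Ube2l6 3.67-fold, each with ranges that did not overlap and in 3 of 3 libraries (exact p = 0.25, Benjamini-Hochberg adjusted over 6 pairs p = 0.3). Herc6 over Uba7 was 1.25-fold (exact p = 0.25, adjusted p = 0.3) and Usp18 over Isg15 was 1.13-fold (exact p = 1, adjusted p = 1). No pair could pass 0.05 in this design. On read-based TPM, from quantification of the reads without alignment, the gaps without overlap of ranges were narrower. Rnf213 over Herc6 was 1.67-fold, Uba7 over Usp18 1.65-fold, Isg15 over Usp25 1.41-fold and Usp25 over Ube2l6 1.68-fold. Herc6 over Uba7 and Usp18 over Isg15 were wider there, at 1.36-fold and 1.58-fold. On protein-coding transcripts alone Uba7 was lower than Usp18 in every library, and Rnf213 over Herc6 widened to 13.4-fold.

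Along the enzyme chain the levels were uneven. Uba7 exceeded Ube2l6 20.1-fold and Herc6 exceeded Ube2l6 25.1-fold, each in 3 of 3 libraries (exact two-sided sign-flip p = 0.25, adjusted over 4 pairs p = 0.333). On read-based TPM the same folds were 6.18 and 8.41. On the transcripts annotated as protein-coding alone the picture differed: Uba7 was listed at 0, 20.1 and 5.20 TPM and Ube2l6 at 6.83, 11.6 and 10.8 TPM. Uba7 was then the lower gene in replicates 1 and 3, and Herc6 remained 6.47-fold above Ube2l6.

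Each of 6 genes was set beside a related gene of the ubiquitin system, and in 5 of the 6 pairs the ISG15-system gene was higher with no overlap of TPM ranges. Of these relatives, Herc3 and Usp16 also stand in the lists below of genes reported to act with ISG15. Their pairs therefore do not set ISG15 genes against genes of ubiquitin alone. Isg15 exceeded Ubb, a polyubiquitin gene, 4.28-fold, with Ubb at 36.8, 17.1 and 16.7 TPM. Uba7 exceeded Uba1, the main ubiquitin-activating enzyme, 11.6-fold, with Uba1 steady at 24.5, 24.9 and 23.6 TPM. That gap was 5.94-fold on read-based TPM and turned in direction on protein-coding transcripts alone (log2 difference -2.99). Herc6 exceeded Herc3, another small HERC ligase, 45.5-fold, with Herc3 at 4.52, 10.3 and 9.72 TPM. It was 9.89-fold on read-based TPM and 17.04-fold on protein-coding transcripts, and Herc4, a further small HERC gene, was much nearer to Herc6 at 71.4 ± 19.9 TPM (SD, n = 3). The deubiquitinases showed smaller gaps, 3.14-fold for Usp25 over its close relative Usp28 and 3.40-fold for Usp18 over Usp16, an enzyme known for removing ubiquitin from histone H2A, which were 5.40-fold and 5.86-fold on protein-coding transcripts. Ube2l6 was the exception, at 1.15-fold over Ube2l3, an E2 that works with RING-between-RING ligases: the ranges of that pair overlapped, and on protein-coding transcripts alone its direction turned (log2 difference -0.32). Each of the 6 pairs kept 1 sign across the 3 libraries (exact two-sided sign-flip p = 0.25, adjusted over 6 pairs p = 0.25).

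**Figure D2:**
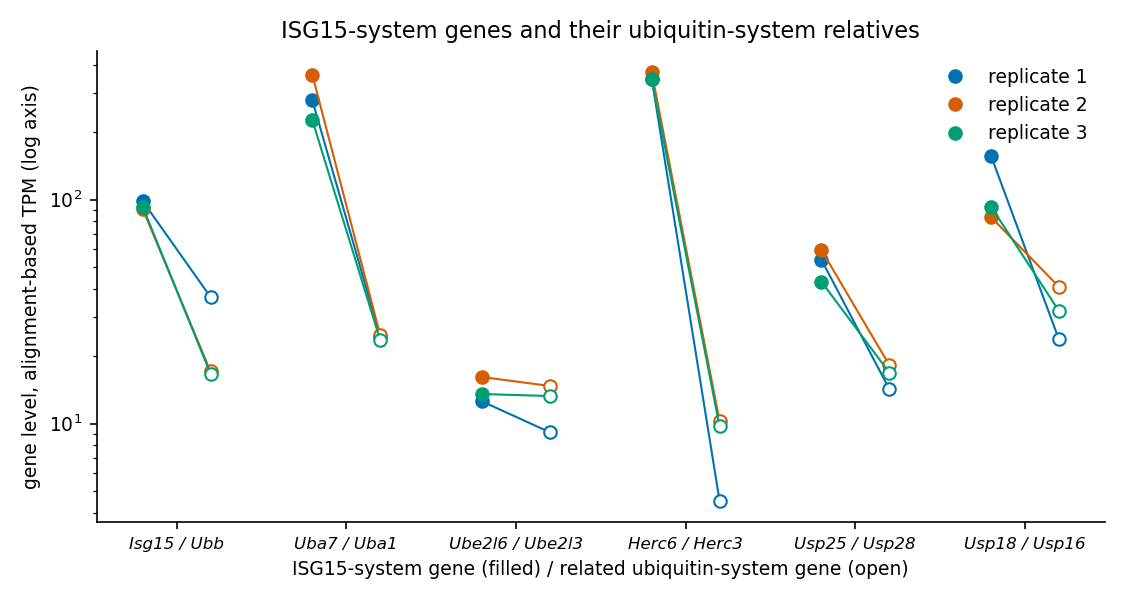
Alignment-based TPM (log axis) of 6 ISG15-system genes (filled points) and a related ubiquitin-system gene (open points), joined within each library. The lines fall steeply for Herc6 and Herc3 (45.5-fold) and for Uba7 and Uba1 (11.6-fold) and are nearly flat for Ube2l6 and Ube2l3 (1.15-fold).

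The 7 genes also differed in which annotated transcripts held their reads. Transcripts that the annotation types as retained intron, which keep part of an intron and have no open reading frame assigned, held 72.9%, 73.5% and 77.1% of Uba7 counts and 70.3%, 64.4% and 69.8% of Herc6 counts in replicates 1, 2 and 3. The median over 5967 expressed protein-coding genes with such a transcript was 30.9% to 31.0%. A share above 50% in all libraries was found for 24% of those genes and for 2 of the 5 genes here that have such a transcript. Usp18 held 35.1% in replicate 1 and 16.2% and 16.9% in the others, Ube2l6 16.0%, 6.26% and 4.72%, and Usp25 4.82%, 4.58% and 4.31%. Isg15 and Rnf213 have no transcript of that type, and 100% of their counts were on protein-coding transcripts. Reads of pre-mRNA that still holds its introns and reads of a finished transcript that keeps one cannot be told apart in these tables.

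**Figure D3:**
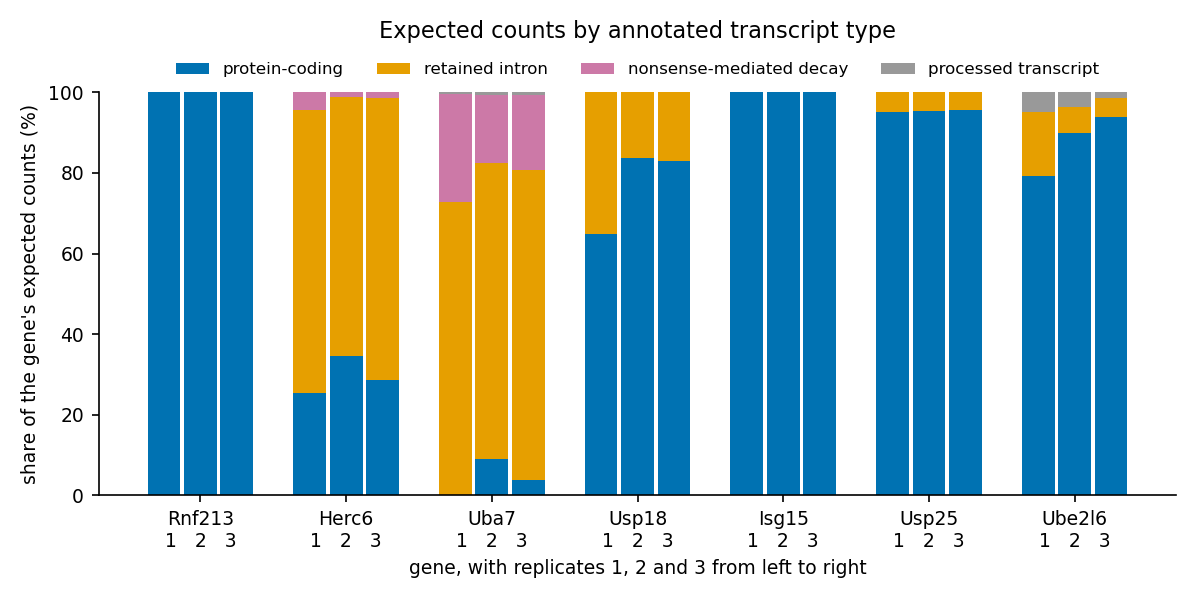
Share of each gene's expected counts (%) by annotated transcript type, 1 bar per library. Herc6 and Uba7 are mostly on retained-intron transcripts in all 3 libraries, whereas Rnf213 and Isg15 are wholly on protein-coding ones.

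In Herc6 the retained-intron counts came almost wholly from 1 model. Herc6-202 is a single block of 4378 bases at chr6:57606511-57610888, of which 297 bases lie in exons of the full coding transcript Herc6-201 and 4081 in its introns. It covers exons 7 and 8, introns 7 and 8 and parts of intron 6 and exon 9. It held 7177, 10336 and 10730 counts, or 64.9% ± 3.25 (SD, n = 3) of the gene, against 25.4%, 34.5% and 28.7% for Herc6-201. The stretch around exon 8 is shown because it is part of both models: the capitals are the 74 bases of exon 8 that Herc6-201 also has, and the lower-case flanks of 30 bases are intron in Herc6-201 and transcript in Herc6-202 (GENCODE M21).
Herc6-202, chr6:57607604-57607737, plus strand: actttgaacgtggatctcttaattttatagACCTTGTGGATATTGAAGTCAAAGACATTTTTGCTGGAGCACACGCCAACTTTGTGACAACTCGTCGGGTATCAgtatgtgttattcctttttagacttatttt
Per length, Herc6-202 stood at 138, 161 and 151 TPM and Herc6-201 at 47.8, 82.9 and 59.8 TPM. The short nonsense-mediated decay model Herc6-203, of 449 bases at the gene's 5′ end, held only 2.31% ± 1.76 of counts but 126, 59.5 and 70.0 TPM. The high gene-level TPM of Herc6 thus contains more from Herc6-202 than from its coding transcript in every library.

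The reads of Uba7 were spread over 15 transcripts. Uba7-210, a retained-intron transcript of 22 exons, led with 30.7% ± 2.29 of counts (SD, n = 3), followed by Uba7-207 with 16.1% ± 1.27, the nonsense-mediated decay transcript Uba7-214 with 16.0% ± 1.97, Uba7-206 with 11.1% ± 1.65 and Uba7-215 with 10.5% ± 3.88. Uba7-207 has 1756 of its 2353 bases in introns of the coding transcript. The other named retained-intron transcripts lie mostly in exons of the coding transcript. Intron bases were 461 of 3620 in Uba7-210, 639 of 2341 in Uba7-206 and 376 of 3371 in Uba7-215. Counts on these transcripts are therefore not a measure of intron reads. Uba7-201, the only protein-coding transcript, was listed at 0, 919 and 264 counts. The posterior means that the authors deposited beside them were 18.99 ± 16.6, 852 ± 136 and 254 ± 96.4 counts, where the error is the deposited posterior SD of 1 library. The assignment to Uba7-201 therefore varied between libraries far more than the gene total, which was 7278, 10252 and 7029 counts.

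Usp18-201, the full coding transcript, held 60.2%, 81.3% and 79.9% of Usp18 counts, or 935, 988 and 1174 counts. The retained-intron transcript Usp18-204 held 18.97%, 9.37% and 10.3%. Per length, replicate 1 was thus high in the retained-intron transcripts of Usp18. Usp18-201 itself stood at 47.1, 42.0 and 44.9 TPM with no excess of that size. As a share of all library counts, which totalled 10293545, 17820066 and 17548564, Usp18-201 was highest in replicate 1 too. By counts the excess of replicate 1 was therefore not confined to the retained-intron transcripts. On protein-coding transcripts alone Usp18 came to 64.2, 49.9 and 55.7 TPM, below Isg15 in every library.

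Usp25-201 held 95.4% ± 0.251 of Usp25 counts and Ube2l6-201 held 79.2%, 90.0% and 94.0% of Ube2l6 counts. Rnf213-201 held 97.0% ± 0.304 of Rnf213 counts. A near-identical coding transcript, Rnf213-202, starts exon 11 at a splice acceptor 3 bases further on and is otherwise the same apart from 3 more bases at its 3′ end. The junction is shown because it is the difference by which reads could be assigned to one or the other, with the 3 extra bases of Rnf213-201 in capitals (chr11:119418074-119418076).
Rnf213-201: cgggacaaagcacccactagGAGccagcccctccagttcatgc
Rnf213-202: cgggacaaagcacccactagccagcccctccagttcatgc
The alignment-based table put 0, 0 and 143 counts on Rnf213-202, with deposited posterior means of 4960 ± 1264, 152 ± 158 and 355 ± 233. The read-based table gave Rnf213-202 7927, 9019 and 9235 counts, or 3.61% ± 0.540 of the gene.

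The same reads quantified without alignment gave other gene levels. Read-based TPM was 626, 675 and 547 for Rnf213, 409, 349 and 349 for Herc6, 303, 297 and 219 for Uba7, and 202, 135 and 160 for Usp18. It was 120, 94.0 and 98.6 for Isg15, 65.6, 79.6 and 75.8 for Usp25, and 34.4, 56.0 and 43.2 for Ube2l6. The order of the 7 genes was unchanged in the mean, with Rnf213 highest and Ube2l6 lowest.

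Ube2l6 moved up most between the quantifications, by 1.63 ± 0.17 on the log2(TPM + 0.1) scale (SD, n = 3, 3.10-fold), while the median expressed gene moved up by 0.44, 0.32 and 0.41 in replicates 1, 2 and 3. It was the only one of the 7 genes whose read-based TPM was over 2 times the alignment-based one in all libraries, which held for 9.11% of 9236 expressed protein-coding genes. The coding transcript Ube2l6-202 of 343 bases was listed at 0 in the alignment-based table and at 7.27, 27.7 and 18.9 TPM in the read-based one.

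Rnf213 moved the other way, by -0.44 ± 0.22 (SD, n = 3), and only 1.04% of expressed protein-coding genes had a lower mean difference. The short coding transcript Rnf213-203, of 2422 bases at the 3′ end of the gene, held 123, 187 and 163 alignment-based TPM and was listed at 0 in all 3 libraries of the read-based table. Its share of alignment-based counts was 2.78%, 2.89% and 3.28%. Differences for the others were 0.61 ± 0.22 for Usp18, 0.50 ± 0.28 for Usp25, 0.14 ± 0.13 for Isg15, 0.06 ± 0.16 for Herc6 and -0.07 ± 0.20 for Uba7. By the exact two-sided sign-flip test p was 0.25 for 5 genes and 0.75 for Herc6 and Uba7 (adjusted over 7 genes p = 0.35 and 0.75).

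**Figure D4:**
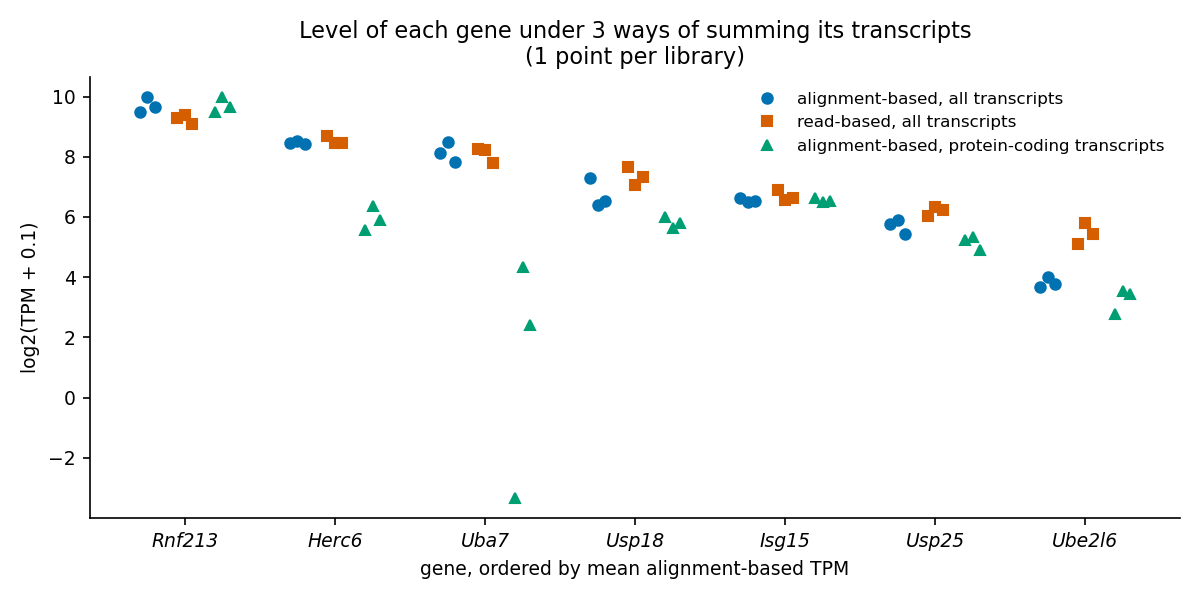
log2(TPM + 0.1) of each gene, 1 point per library, from alignment-based values over all transcripts (circles), read-based values over all transcripts (squares) and alignment-based values over protein-coding transcripts only (triangles). Uba7 and Herc6 fall when only coding transcripts are summed, the lowest Uba7 triangle being a value listed at 0, and Ube2l6 is higher in the read-based table.

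Genes that share their positions with these 7 bear on the counts, because whether counting used strand is not given in the sources used here. The antisense noncoding gene A930037H05Rik overlaps Rnf213 over 38631 bases and held 148, 155 and 124 TPM, with counts of 4.18% to 5.68% of those of Rnf213. Gm45193, a noncoding gene on the strand of Herc6, overlaps it over 45031 bases and held 72.7, 25.8 and 25.2 TPM, with counts of 3.08% to 11.7% of those of Herc6, highest in replicate 1. The antisense pseudogene Gm19244 within Herc6 was listed at 20.2, 32.6 and 34.1 TPM from only 27, 22 and 26 counts. Gm44148, antisense to Usp18, held 4, 2 and 1 counts in the alignment-based table but 21.5, 25.7 and 24.7 TPM in the read-based one. Gm20661, which overlaps the 3′ end of Uba7 on its strand over 1003 bases, held at most 0.695% of the counts of Uba7. Reads in the shared stretches may be split wrongly between these genes.

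After scaling for library size (CPM, the count scaled by library size, with edgeR TMM), the spread over the libraries differed between the 7 genes. Ube2l6, Herc6 and Rnf213 had an SD of log2(CPM + 0.5) of 0.039, 0.065 and 0.088, lower than all but 2.14%, 5.61% and 9.65% of 12198 protein-coding genes. Ube2l6 had only 149, 261 and 258 expected counts, so sampling noise bears on its SD and the low value need not mean a steady gene. Usp18 had 0.58, with 90.1% of genes lower, from 150, 68.4 and 86.4 CPM. Isg15 had 0.42 from 70.7, 39.8 and 47.6 CPM, Uba7 0.39 from 702, 577 and 414 CPM, and Usp25 0.31. The median gene had 0.26, or 0.14 without replicate 1. Without replicate 1 the SD of Usp18 fell to 0.24 and that of Isg15 to 0.18. That of Rnf213 became 0.12 without replicate 1, with 44.8% of genes lower. The order of the spreads changed with the scale: on log2(TPM + 0.1) the SD was 0.18 for Ube2l6, 0.26 for Rnf213 and 0.060 for Isg15, and only Herc6, at 0.058, was low on both.

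Across the genes that partner with ISG15 conjugation, 9 of 9 other reported ISG15 ligases and partners were expressed, and 7 exceeded the median gene. Stat2, the interferon signalling factor that USP18 needs to bind the receptor, was highest at 554 ± 138 TPM (SD, n = 3), followed by Itgal, a chain of the integrin LFA-1 and a reported receptor of free ISG15, at 270 ± 64.4 and Trim25, a ligase of ubiquitin and ISG15, at 117 ± 22.4. Skp2, an F-box protein, was lowest at 4.48 ± 1.41. Of 6 other deubiquitinases with reported ISG15 activity, 4 were expressed, led by Usp5 at 64.3 ± 15.7, Usp14 at 49.98 ± 18.4 and Usp21 at 39.5 ± 10.8 TPM, while Usp13 was listed at 0 in every library.

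The conjugation genes of other modifiers lay nearer the median gene. Among 12 other ubiquitin-like modifiers 11 were expressed and 8 exceeded the median gene, the highest being Fau at 30.7 ± 7.42 TPM (SD, n = 3), Gabarap at 29.4 ± 3.12 and Sumo2 at 29.3 ± 11.3, and no other modifier reached the Isg15 level in any library. Ubd (FAT10), another interferon-linked modifier, was listed at 0. Of 9 other E1 enzymes 8 were expressed and 6 above the median gene, with Nae1 of the NEDD8 pathway highest at 46.5 ± 17.9 and Mocs3 lowest at 1.69 ± 0.729. Of 8 other E2 enzymes 7 were expressed and 5 above the median gene, with Ube2f at 81.1 ± 1.20 and Ube2m at 59.2 ± 4.78 among the highest, and Atg10 lowest at 1.57 ± 1.06. All 4 ubiquitin genes were above the median gene, with Ubb lowest at 23.5 ± 11.5.

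Interferon signalling and other interferon-stimulated genes were expressed throughout, 11 of 11 and 20 of 20, with 10 and 20 above the median gene. Ifnb1, the interferon beta gene, was the lowest of the signalling genes at 3.94, 2.08 and 3.50 TPM, and Stat2 and Irf7, at 298 ± 72.02 (SD, n = 3), were among the highest. Among the 7 genes and the 20 others ranked together by mean TPM, Rnf213 was 2nd after Mx1 at 1001 ± 240 TPM, and Oasl2 at 816 ± 25.6 and Parp14 at 744 ± 106 came next. By library Rnf213 was 4th, 2nd and 3rd in replicates 1, 2 and 3, and by mean read-based TPM it was 5th, so its order among the highest of these genes was not fixed. Herc6 was 6th in each library, Uba7 8th, 7th and 10th, Usp18 14th, 20th and 20th, and Isg15 22nd, 19th and 19th, while Usp25 and Ube2l6 took the last places, below Oas1a at 61.8 ± 3.88. By mean read-based TPM Ube2l6 stayed last at 27th, but Usp25 was 24th, at 73.7 TPM against 58.4 for Oas1a. The median level over the median gene was 9.20-fold for the 7 genes, 7.87-fold for interferon signalling and 13.9-fold for the other interferon-stimulated genes. It was lowest for the other E2 enzymes at 1.31-fold and the other modifiers at 1.38-fold. Between these lay the other E1 enzymes at 1.94-fold and the ubiquitin genes at 2.59-fold. The other deubiquitinases with reported ISG15 activity stood at 2.91-fold and the other ISG15 ligases and partners at 5.83-fold.

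**Figure D5:**
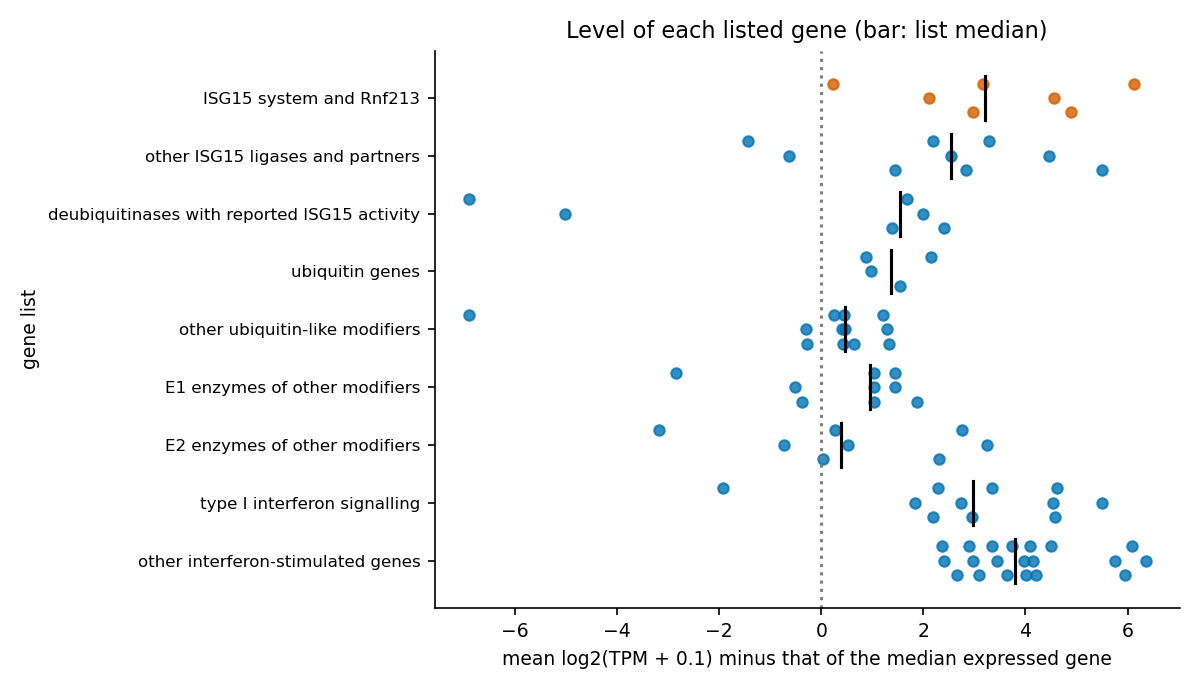
Mean log2(TPM + 0.1) of each listed gene minus that of the median expressed protein-coding gene, by list, with a bar at the list median. The 7 genes all lie to the right of 0 with Ube2l6 nearest to it, and the 20 other interferon-stimulated genes all lie to the right of it too.

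The protein-coding genes whose TPM lay nearest in all 3 libraries, by the largest absolute log2 difference in any library, were found for each of the 7. For Isg15 they were Sbf1 (0.042), Apobr and Cd180. For Uba7 they were Irf7 (0.061), which encodes the interferon regulatory factor, Trafd1 and Itgal. For Usp18 they were Sec24b (0.11), Dse and Trim25. For Herc6 they were Clcn7 (0.12) and Nfkb1, for Ube2l6 Pitpnb (0.035), B4galt7 and Rnh1, and for Usp25 Plekhj1 (0.054), Taf15 and Baz2a. Rnf213 was nearest to Parp14 (0.25), Rsrp1 and Mx1. With 3 libraries this likeness is mainly one of level.

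The libraries held 10293545, 17820066 and 17548564 expected counts (replicates 1, 2 and 3), and the 7 genes took 1.42%, 1.41% and 1.22% of them. Replicate 1, the shallowest and the one from the most RNA, stood apart: across genes, which are not independent replicates, Pearson's r of log2(TPM + 0.1) over 9245 expressed protein-coding genes was 0.95 between it and either other library and 0.98 between the others. No 2 libraries agreed within sampling noise in a chi-square comparison of their counts, so all 3 were counted. All 8 macrophage markers were expressed, with summed TPM of 1026 to 1528 per library. Of 24 markers of plasmacytoid dendritic cells, T cells, B cells, neutrophils, fibroblasts and erythroid cells, 1 (Alas2, erythroid) was expressed and 7 were listed at 0. The summed level of any of those 6 types was at most 5.65 TPM.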

How the data were processed

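Per library, the authors deposited gene and transcript tables of expected counts and TPM (columns as RSEM writes them, per the file headers), called alignment-based here, and a transcript table of estimated counts and TPM (columns as kallisto writes them), called read-based. Per the labels the build is mm10, and per the deposited notes the annotation is GENCODE M21. A posterior mean and SD of each alignment-based transcript count, used as a score of assignment uncertainty, stand as deposited by the authors. The sources used here give neither program versions nor the strand setting. Of 81881 gene rows, 55536 matched the annotation, and numeric and spike-in rows were left out of gene counts but stay in library totals.

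Levels were compared as log2(TPM + 0.1) within each library. The test of pairs was the exact sign-flip test, two-sided. Read-based transcripts were summed per gene. Expected counts were rounded for edgeR 4.0.16 (R 4.3.3), with TMM, genes of at least 10 counts over the libraries and an intercept-only design. The code was tested on simulated data. Members, lists and alternatives were chosen with earlier results of these data known. Named were the 7 genes, from each list its lowest gene and its 3 highest by mean TPM, related genes, the 3 nearest genes and transcripts of at least 10% of a gene's counts. A few genes within this rule are left unreported. Herc6-203, Uba7-201, Ube2l6-202, Rnf213-202, Rnf213-203 and the overlapping genes were named after their values were seen. Alternatives covered thresholds, pseudocounts, normalisation, the read-based values, TPM shares, rescaled TPM and leaving out each replicate. Sums over protein-coding transcripts were added after the data were seen.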

Additional observations from a re-analysis of the deposited data

How the results depend on the processing

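With 3 libraries of 1 condition no test could pass 0.05, and low counts limit Ube2l6 most (149 to 261 per library). No pairing of samples between conditions was possible because all libraries belong to 1 group. The sign-flip tests compared genes or quantifications within each library. The median log2 level of the 7 genes over the median expressed gene was 3.20, and 2.36 with expression set at 5 TPM, which put Ube2l6 at -0.60. On protein-coding transcripts only, Uba7 was at -1.70. The median SD was 0.31, and between 0.157 and 0.397 with 1 replicate left out. The median retained-intron share was 22.7% of counts and 46.5% of TPM. The median read-based minus alignment-based difference was 0.14 and became -0.25 after the median gene's difference was subtracted. By gene, that subtraction reversed Isg15 to -0.25 and Herc6 to -0.34. With 1 replicate left out, the difference ranged from -0.034 to 0.127 for Herc6 and from -0.164 to 0.039 for Uba7, and Usp18 minus Isg15 ranged from -0.062 to 0.334. On protein-coding transcripts only, Uba7 minus Usp18 became -4.68 and Uba7 minus Uba1 -2.99, sizes that rest on a Uba7 value of 0 in replicate 1 and on the pseudocount, though Uba7 was the lower gene of the first pair in every library. Ube2l6 minus Ube2l3 became -0.32 and Usp18 minus Isg15 -0.74. Those 4 pairs turned because retained-intron, nonsense-mediated decay and other transcripts not typed as protein-coding are left out of the sum. For the remaining changes the cause was not tested. Of 96 recomputed pair differences 91 kept their direction, and all 54 recomputed counts of expressed list genes stayed within 1.5 times.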
